A study of Mus musculus with 2 samples.

Results

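The nuclear genes of oxidative phosphorylation were examined in 2 sections of inflamed mouse back skin. They were all genes of the count tables whose symbols start with Nduf, Uqcr or Atp5, those that start with Cox followed by a number from 4 to 8 and a letter, and Sdha, Sdhb, Sdhc and Sdhd, which gave 80 of 19465 genes. Of these, 34 belonged to complex I, 6 were complex I assembly factors, 4 belonged to complex II, 7 to complex III, 16 to complex IV (cytochrome c oxidase, with Ndufa4l2 counted here) and 13 to ATP synthase. One section came from an S1pr2fl/fl mouse, which carries floxed alleles of the sphingosine 1-phosphate receptor 2 gene and no Cre, and the other from an S1pr2fl/fl K14-Cre mouse, in which a Cre driven by the keratin 14 promoter deletes that gene in keratinocytes. Both mice were 8 weeks old, were depilated, and received 62.5 mg of 5% imiquimod (IMQ) cream each day for 7 days, a model of psoriasis. Fixed tissue cut at 10 μm was placed on capture areas 11 mm wide, and gene probes were counted as unique molecular identifiers (UMIs) in spots that each hold several cells. With 1 section per genotype there was no replicate of either genotype, no test between sections was possible, and a difference between genotypes and a difference between sections cannot be told apart.

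Oxidative phosphorylation passes electrons from NADH through complex I, or from succinate through complex II, to complex III, cytochrome c and complex IV, and ATP synthase uses the proton gradient so built to make ATP. Most subunits are encoded in the nucleus and the remainder in mitochondrial DNA. Skeletal muscle is rich in these complexes, slow and oxidative fibres more than fast glycolytic ones, and several subunits of complex IV exist as a form found in heart and skeletal muscle and a form found in most tissues. In mouse back skin a sheet of muscle, the panniculus carnosus, lies below the dermis and the subcutaneous fat. The subunits encoded in mitochondrial DNA, and some nuclear ones such as Cox4i1 and Ndufa4, were not analysed here.

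The promoters of the muscle form and the general form of subunits 7A and 8 of complex IV are shown first, because their muscle forms were among the genes with the highest ratios of muscle to epidermis, together with that of Cox6a1, the general form of subunit 6A, and of Sdhb, a complex II gene that was higher in muscle. Each is the 250 bases before the start of the gene, written 5′ to 3′ on the gene's strand, from RefSeq for GRCm38.p6. Capitals mark exact matches, on either strand, to NRF1 (GCGCATGC), ERR (TCAAGGTCA), ETS (CCGGAAG) and YY1 (AAGATGGC), the binding motifs of factors known from promoters of mitochondrial genes. The stretches lie at chr7:30183921-30184170 for Cox7a1, chr9:79759854-79760103 for Cox7a2, chr7:140900447-140900696 for Cox8b, chr19:7217617-7217866 for Cox8a, chr5:115348959-115349208 for Cox6a1 and chr4:140961021-140961270 for Sdhb. Cox7a1 and Sdhb are on the plus strand and the other 4 on the minus strand.
Cox7a1: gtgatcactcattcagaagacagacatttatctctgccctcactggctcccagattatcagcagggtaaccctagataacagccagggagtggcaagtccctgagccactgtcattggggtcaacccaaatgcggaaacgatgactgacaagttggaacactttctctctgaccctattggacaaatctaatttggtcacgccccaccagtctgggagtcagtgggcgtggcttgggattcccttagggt
Cox7a2: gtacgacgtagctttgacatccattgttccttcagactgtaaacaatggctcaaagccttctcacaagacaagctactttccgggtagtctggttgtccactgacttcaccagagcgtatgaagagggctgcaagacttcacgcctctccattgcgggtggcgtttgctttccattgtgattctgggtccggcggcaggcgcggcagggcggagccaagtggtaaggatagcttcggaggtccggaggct
Cox8b: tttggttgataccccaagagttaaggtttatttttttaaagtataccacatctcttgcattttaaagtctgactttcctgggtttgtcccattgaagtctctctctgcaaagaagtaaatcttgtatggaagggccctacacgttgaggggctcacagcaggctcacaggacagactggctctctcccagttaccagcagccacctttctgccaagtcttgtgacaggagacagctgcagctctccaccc
Cox8a: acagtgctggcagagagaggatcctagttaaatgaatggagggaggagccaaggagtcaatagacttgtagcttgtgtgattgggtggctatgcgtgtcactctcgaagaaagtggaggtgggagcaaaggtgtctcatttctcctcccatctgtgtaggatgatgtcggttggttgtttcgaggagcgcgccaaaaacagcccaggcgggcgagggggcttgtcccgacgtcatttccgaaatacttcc
Cox6a1: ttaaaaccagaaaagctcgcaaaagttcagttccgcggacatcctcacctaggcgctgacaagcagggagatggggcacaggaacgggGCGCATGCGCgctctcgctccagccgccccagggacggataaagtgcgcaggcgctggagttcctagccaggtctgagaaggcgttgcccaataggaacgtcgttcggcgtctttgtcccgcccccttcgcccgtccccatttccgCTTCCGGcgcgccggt
Sdhb: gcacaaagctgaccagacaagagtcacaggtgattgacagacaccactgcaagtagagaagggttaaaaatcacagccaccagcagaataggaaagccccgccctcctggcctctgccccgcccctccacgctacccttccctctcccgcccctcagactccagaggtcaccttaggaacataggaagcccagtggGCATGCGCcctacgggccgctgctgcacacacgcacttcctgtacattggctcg

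The stretches of Cox7a1, Cox7a2, Cox8b and Cox8a held none of these letters. That of Cox6a1 held NRF1 on both strands, in matches that overlap, and ETS on the opposite strand, and that of Sdhb held NRF1. Over windows of 300 bases, which also take in 50 bases after the start, 65 of the 80 genes matched a RefSeq entry by symbol or synonym, with 70 windows. NRF1 was found in 10 of them (14.3%), against 2.71% of all 32851 windows. ETS was found in 16 (22.9%, against 8.86% of all windows) and YY1 in 8 (11.4%, against 2.75%). The windows with ETS include those of Cox8a, with matches that begin at bases 246 and 283, and of Sdhb, at base 257. These matches reach or lie past the end of the 250 bases shown and are not marked there. ERR was found in 2 (2.86%, against 0.423%), those of Sdhd and Atp5g3. The matches are a description of these letters only, since binding was not measured.

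In all, 1282 spots with 5315351 UMIs came from the S1pr2fl/fl mouse and 981 spots with 2845826 UMIs from the S1pr2fl/fl K14-Cre mouse. The deleted gene, S1pr2, had 154 UMIs in the S1pr2fl/fl section and 54 in the other. Per 1000000 UMIs of the spots (CPM) this was 29.0 (24.6 to 33.9) and 19.0 (14.3 to 24.8), with intervals that just overlap. In epidermis spots it had 16 and 8 UMIs, or 18.5 CPM in both. The intervals of the latter values, 10.6 to 30.1 and 7.99 to 36.4 CPM, did not allow the deletion to be checked. The 80 genes gave 98743 UMIs, or 1.86% of the S1pr2fl/fl section, and 60430 UMIs, or 2.12% of the S1pr2fl/fl K14-Cre section, and every one of them had at least 15 UMIs in each section. The lowest counts, 17 and 15 UMIs, do not by themselves show expression. The 1226 receptor genes of smell and taste, taken as background below, gave 14430 and 20861 UMIs together. Of the spot barcodes, 357 occurred in both sections, which are array positions and not shared cells. Levels are given with exact Poisson 95% intervals, ratios with intervals conditional on the summed counts and shares with Clopper-Pearson intervals, and all cover counting error only, not the spread between mice.

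Spots with at least 500 UMIs, 1096 and 947, were grouped by marker lists. A spot was placed in the epidermis, dermis, fat or muscle class when the list's share of its UMIs was in the top 15% of its section and no other class's share was. This gave 165 epidermis, 110 dermis, 98 fat and 153 muscle spots in the S1pr2fl/fl section, and 142, 102, 92 and 132 in the S1pr2fl/fl K14-Cre section. Between 10 and 12 markers defined dermis, fat and muscle and 18 the epidermis, and all but 1 of the epidermis and 1 of the dermis markers were highest in their own class in both sections. This follows largely from the grouping, which used the same markers, and is no check of the classes. The classes were not pure. The muscle list reached 16763 CPM in fat spots of the S1pr2fl/fl section and 38395 CPM in those of the S1pr2fl/fl K14-Cre section, against 69808 and 107083 CPM in muscle spots. In dermis spots it stood at 3470 and 19932 CPM, and in epidermis spots at 482 and 1329 CPM. The epidermis list reached 32351 CPM in dermis spots of the S1pr2fl/fl section, against 5276 CPM in the other section, and 149999 and 79138 CPM in epidermis spots. Receptor genes of smell and taste (Olfr, Vmn1r, Vmn2r, Tas2r and Taar genes) were taken as background, though their absence from skin was not checked. They summed to 1071 CPM in S1pr2fl/fl epidermis spots and 8619 CPM in S1pr2fl/fl K14-Cre epidermis spots, but to 1942 and 1929 CPM in muscle spots.

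**Figure D1:**
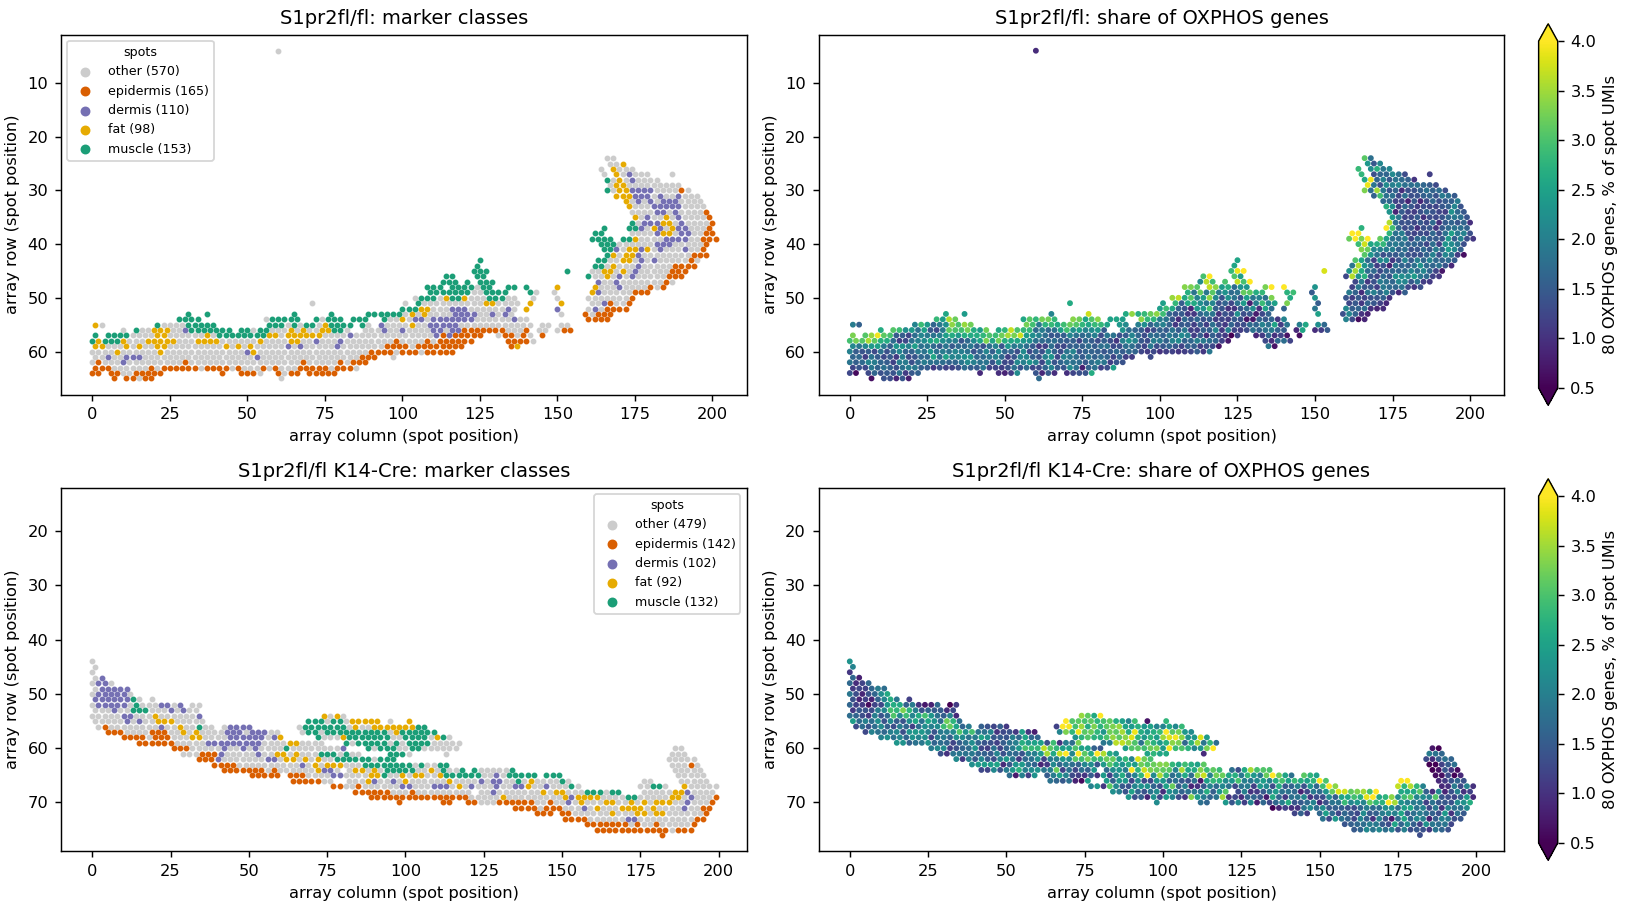
Position of each spot with at least 500 UMIs on the array, by array column and row and drawn to scale, for both sections. Left panels show the marker classes, with the number of spots, and right panels the share of each spot's UMIs from the 80 oxidative phosphorylation genes (colour, 0.5 to 4%). Muscle spots, with medians of 2.99% and 3.10%, lay mostly on the side away from the epidermis spots, and partly in a separate strip of tissue in the S1pr2fl/fl K14-Cre section.

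The oxidative phosphorylation genes took up more of the RNA in muscle spots than in any other class, in both sections. They summed to 29744 CPM in S1pr2fl/fl muscle (29300 to 30194), 19631 in fat (19208 to 20062), 14429 in epidermis (14177 to 14685) and 14213 in dermis (13862 to 14571). The corresponding sums of the S1pr2fl/fl K14-Cre section were 30624 CPM in muscle (30088 to 31168), 22501 in fat (21937 to 23077), 18884 in epidermis (18477 to 19298) and 15314 in dermis (14922 to 15713). Only epidermis and dermis of the S1pr2fl/fl section were neighbours whose intervals overlapped. Muscle exceeded epidermis 2.06-fold (2.01 to 2.11) and 1.62-fold (1.58 to 1.67). Without the muscle forms Cox6a2, Cox7a1 and Cox8b, the other 77 genes still exceeded epidermis 1.75-fold (1.71 to 1.79) and 1.43-fold (1.38 to 1.47). Since a spot holds several cells, fewer cells of a type and less RNA per cell cannot be told apart.

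Spot by spot, the share of UMIs ran from 1.24% to 5.67% with a median of 2.99% in S1pr2fl/fl muscle, and from 0.361% to 2.65% with a median of 1.35% in epidermis. The share ran from 1.66% to 4.61% with a median of 3.10% in S1pr2fl/fl K14-Cre muscle and from 0.274% to 3.50% with a median of 1.83% in epidermis. The classes therefore overlapped at their extremes, while the lower quartile of muscle (2.59% and 2.71%) lay above the upper quartile of epidermis (1.59% and 2.17%). Spots of 1 section are not replicates. When each section was divided into 4 segments along the array columns, muscle exceeded epidermis in all 4 segments of each, by 1.90 to 2.26-fold in the S1pr2fl/fl section and by 1.36 to 1.96-fold in the other. The highest value of the S1pr2fl/fl section rests on 5 muscle spots and the lowest of the other section on 6.

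**Figure D2:**
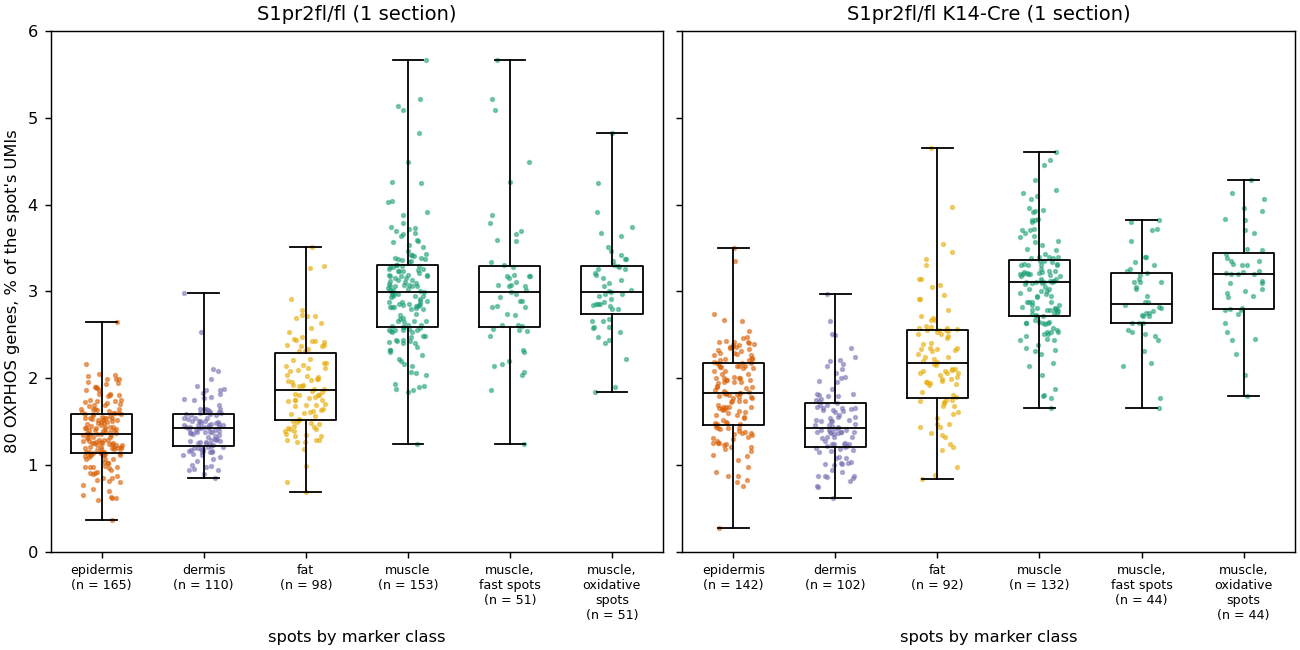
Share of each spot's UMIs from the 80 genes (vertical axis, percent) by marker class and section, with n the number of spots. Boxes span the quartiles with the median as a line, whiskers reach the lowest and highest spot and points are single spots. Muscle lies highest, and its fast and oxidative spots overlap almost wholly (medians 2.99% and 2.99%, and 2.86% and 3.20%).

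A gene was counted as higher or lower when its CPM differed at least 2-fold and it had at least 50 UMIs over both classes. In the S1pr2fl/fl section 67 of the 80 genes had enough UMIs for muscle against epidermis, and 30 were higher in muscle (44.8%, against 25.6% of all 4949 genes with enough UMIs) and 2 lower (2.99%, against 22.5%). For the S1pr2fl/fl K14-Cre section 62 had enough UMIs, 26 were higher in muscle (41.9%, against 24.8% of 3035 genes) and 4 lower (6.45%, against 36.7%). The median ratio was 1.94 and 1.76, against 1.00 and 0.807 for all genes. Of 62 genes with enough UMIs in both sections, 19 were higher in muscle in both and 2, Cox6a1 and Ndufa4l2, lower in both. The share of all genes called in both sections was not computed, here or in the comparisons below, so these counts have no background beside them.

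By complex, the difference in summed CPM between muscle and epidermis was largest for complex II and smallest for ATP synthase. Complex II, succinate dehydrogenase, which also serves the citric acid cycle and has no subunit from mitochondrial DNA, summed to 1792 CPM in S1pr2fl/fl muscle and 503 in epidermis, 3.56-fold (3.18 to 3.99). Its ratio in the S1pr2fl/fl K14-Cre section was 2.25 (1.97 to 2.58). ATP synthase differed 1.59-fold (1.52 to 1.66) and 1.42-fold (1.35 to 1.498), complex I 2.14-fold and 1.69-fold, complex III 1.97-fold and 1.62-fold, and complex IV 2.56-fold and 1.78-fold. The higher complex IV sum in muscle rests on its muscle forms Cox6a2, Cox7a1 and Cox8b. Together they had 2630 UMIs in muscle and 25 in epidermis of the S1pr2fl/fl section, and 1581 and 58 in the other. Without these forms, the other complex IV genes summed to less in muscle than in epidermis in both sections, so the ratios of complex IV do not hold for the complex as a whole. Of the 11 complex IV genes with enough UMIs in each section, 3 and 5 were higher in muscle and 2 and 3 lower. The intervals of the sums of complex II and ATP synthase did not overlap in either section. The median gene ratio of complex IV, 1.53 and 1.52, was near that of ATP synthase, 1.51 and 1.45. That of complex II was 3.46 and 2.62, against 2.13 and 2.62 for complex I and 1.88 and 1.67 for complex III.

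Within complex II, all 4 genes were higher in muscle in the S1pr2fl/fl section. Sdhb, the iron-sulphur subunit, stood at 134 CPM in epidermis, 242 in dermis, 332 in fat and 590.5 in muscle, and at 173, 201, 336 and 541 CPM in the S1pr2fl/fl K14-Cre section. Its muscle over epidermis ratio was 4.40 (3.55 to 5.48) and 3.12 (2.39 to 4.11). Sdhc, a membrane anchor, gave 3.997 (3.22 to 4.99) and 3.04 (2.21 to 4.24), and Sdha, the flavoprotein, 2.92 (2.37 to 3.62) and 2.20 (1.73 to 2.82). Sdhd, the other anchor, gave 2.66 (1.96 to 3.63) in the S1pr2fl/fl section but 1.12 (0.827 to 1.51) in the S1pr2fl/fl K14-Cre section, where its epidermis level was 208 CPM against 78.7 CPM in the S1pr2fl/fl section.

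Complex I is the entry point for NADH. Its subunit Ndufa9 gave a muscle over epidermis ratio of 2.90 (2.08 to 4.10) and 5.998 (3.30 to 11.8). Of the 34 subunit genes, 30 had enough UMIs in the S1pr2fl/fl section, 17 were higher in muscle and none lower, and in the S1pr2fl/fl K14-Cre section 15 of 27 were higher and none lower. The accessory subunit Ndufs5 did not differ 2-fold in the S1pr2fl/fl section (1.05, 0.626 to 1.75) and had too few UMIs in the other. Of the 6 assembly factors, which help to build the complex and are not part of it, 2 and 1 had enough UMIs and none was called.

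Several of the genes with the most UMIs, many of them of ATP synthase, differed by less than 2-fold. Atp5a1, the alpha subunit of the catalytic head, was 1.45-fold (1.31 to 1.60) and 1.21-fold (1.08 to 1.37) higher in muscle, and Atp5b, the beta subunit, 1.51-fold (1.33 to 1.72) and 2.53-fold (2.12 to 3.03). Atp5d and Atp5e, of the central stalk, gave 1.83 and 2.04 in the S1pr2fl/fl section and 2.00, just under the 2-fold limit, and 1.91 in the other. Atp5k, of the membrane part, gave 1.07 (0.929 to 1.24) and 0.838 (0.696 to 1.01). Of the genes that encode the same c subunit of the proton-driven ring, Atp5g3 gave 1.24 (1.09 to 1.42) and 1.01 (0.857 to 1.19), and Atp5g1 1.77 (1.04 to 3.003) and 1.10 (0.641 to 1.91). Atp5o, of the stalk, was 0.900 (0.693 to 1.16) in the S1pr2fl/fl section and 2.55-fold lower in muscle in the other (0.392, 0.291 to 0.524). Uqcr10, a small subunit of complex III, was 2.64-fold (2.29 to 3.06) and 3.13-fold (2.53 to 3.90) higher in muscle, whereas Uqcrh gave 1.63 (1.39 to 1.93) and 1.30 (1.01 to 1.66). Ndufb7, the complex I subunit with the most UMIs, gave 2.11 (1.80 to 2.47) and 1.23 (1.06 to 1.42).

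**Figure D3:**
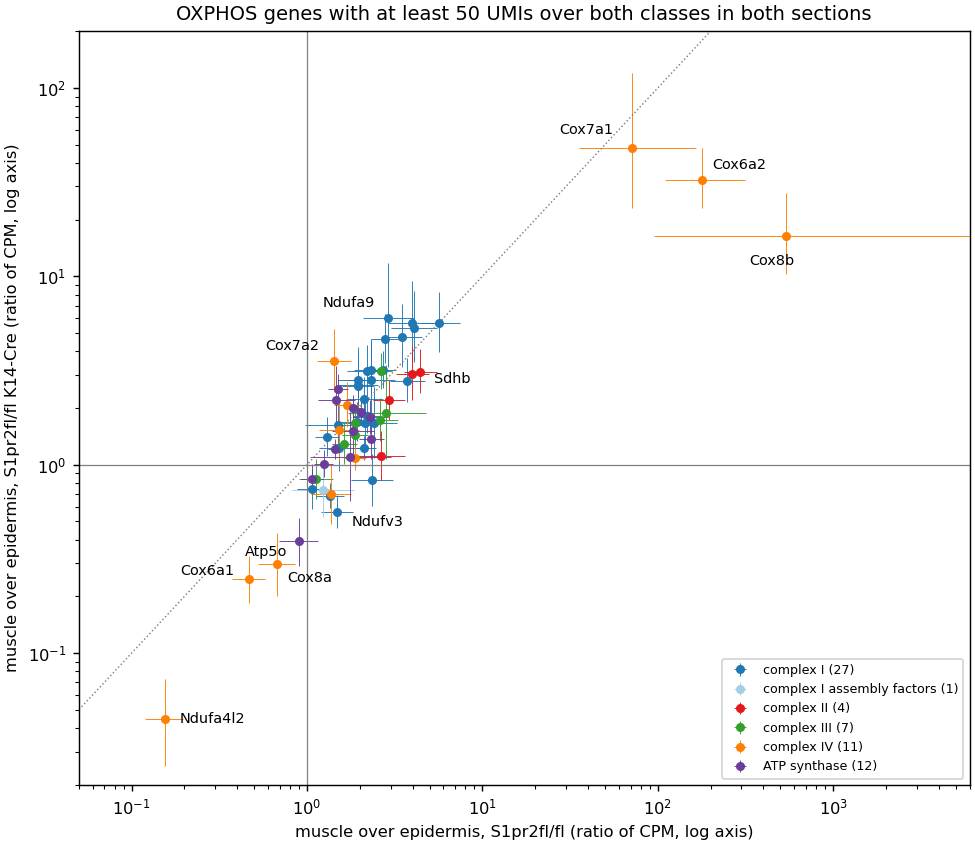
Muscle over epidermis ratio of CPM in the S1pr2fl/fl section (horizontal, log axis) against the S1pr2fl/fl K14-Cre section (vertical, log axis) for the 62 genes with at least 50 UMIs over both classes in both sections. Bars are 95% counting intervals, colours mark the complexes with the number of genes, the dotted line marks equal ratios, and the interval of Cox8b runs beyond the right edge. Cox6a2, Cox7a1 and Cox8b lie far to the upper right and Ndufa4l2 lowest.

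Among the genes with at least 50 UMIs over both classes, the muscle forms of complex IV had the highest ratios of muscle to epidermis in both sections. Cox6a2, the heart and skeletal muscle form of subunit 6A, had 18.5 CPM in epidermis, 190 in dermis, 835 in fat and 3304 in muscle of the S1pr2fl/fl section, and 74.0, 206, 773 and 2410 CPM in the S1pr2fl/fl K14-Cre section. Muscle exceeded epidermis 178-fold (110 to 313) and 32.6-fold (22.9 to 47.9), where the epidermis values rest on 16 and 32 UMIs. Cox7a1, the muscle form of subunit 7A, had 9.26, 22.8, 168 and 657 CPM in the same order and 16.2, 106, 183 and 775 CPM in the other section. Its ratio was 70.9 (35.6 to 166) and 47.9 (23.0 to 120). Cox8b, the muscle form of subunit 8, had 1 UMI in S1pr2fl/fl epidermis and 356 in muscle, a ratio of 536 with a counting interval of 95.6 to 21228, and 19 and 291 UMIs in the S1pr2fl/fl K14-Cre section, a ratio of 16.4 (10.3 to 27.6). The values rose from epidermis through dermis and fat to muscle for each of these genes in each section, but 3 of the neighbouring steps lay within overlapping counting intervals. These were epidermis and dermis for Cox7a1 in the S1pr2fl/fl section (3.996 to 18.2 and 10.9 to 42.0 CPM), dermis and fat for Cox7a1 in the S1pr2fl/fl K14-Cre section (75.5 to 144 and 135 to 242 CPM), and fat and muscle for Cox8b in the S1pr2fl/fl K14-Cre section (509 to 698 and 638 to 806 CPM).

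The general forms did not rise with them as a group. Cox6a1 stood at 439 CPM in S1pr2fl/fl epidermis and 204 in muscle, and at 606 and 151 CPM in the S1pr2fl/fl K14-Cre section, so that it was 2.15-fold (ratio 0.465, 0.374 to 0.573) and 4.02-fold (ratio 0.249, 0.185 to 0.330) lower in muscle. Cox8a gave a ratio of 0.673 (0.528 to 0.854) and 0.298 (0.200 to 0.434). Cox7a2 went the other way, with 1.42 (1.14 to 1.78) and 3.55 (2.44 to 5.28). The muscle forms made up 87.5% (86.3 to 88.7) and 87.8% (86.2 to 89.3) of the UMIs of these 3 pairs in muscle spots, 58.0% (54.6 to 61.4) and 64.4% (60.6 to 68.1) in fat, 22.8% (19.2 to 26.8) and 45.9% (40.8 to 51.1) in dermis, and 3.14% (2.04 to 4.60) and 11.9% (9.19 to 15.2) in epidermis. The probes of each gene are not known here, so the share is read for its change between classes and not for its level.

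**Figure D4:**
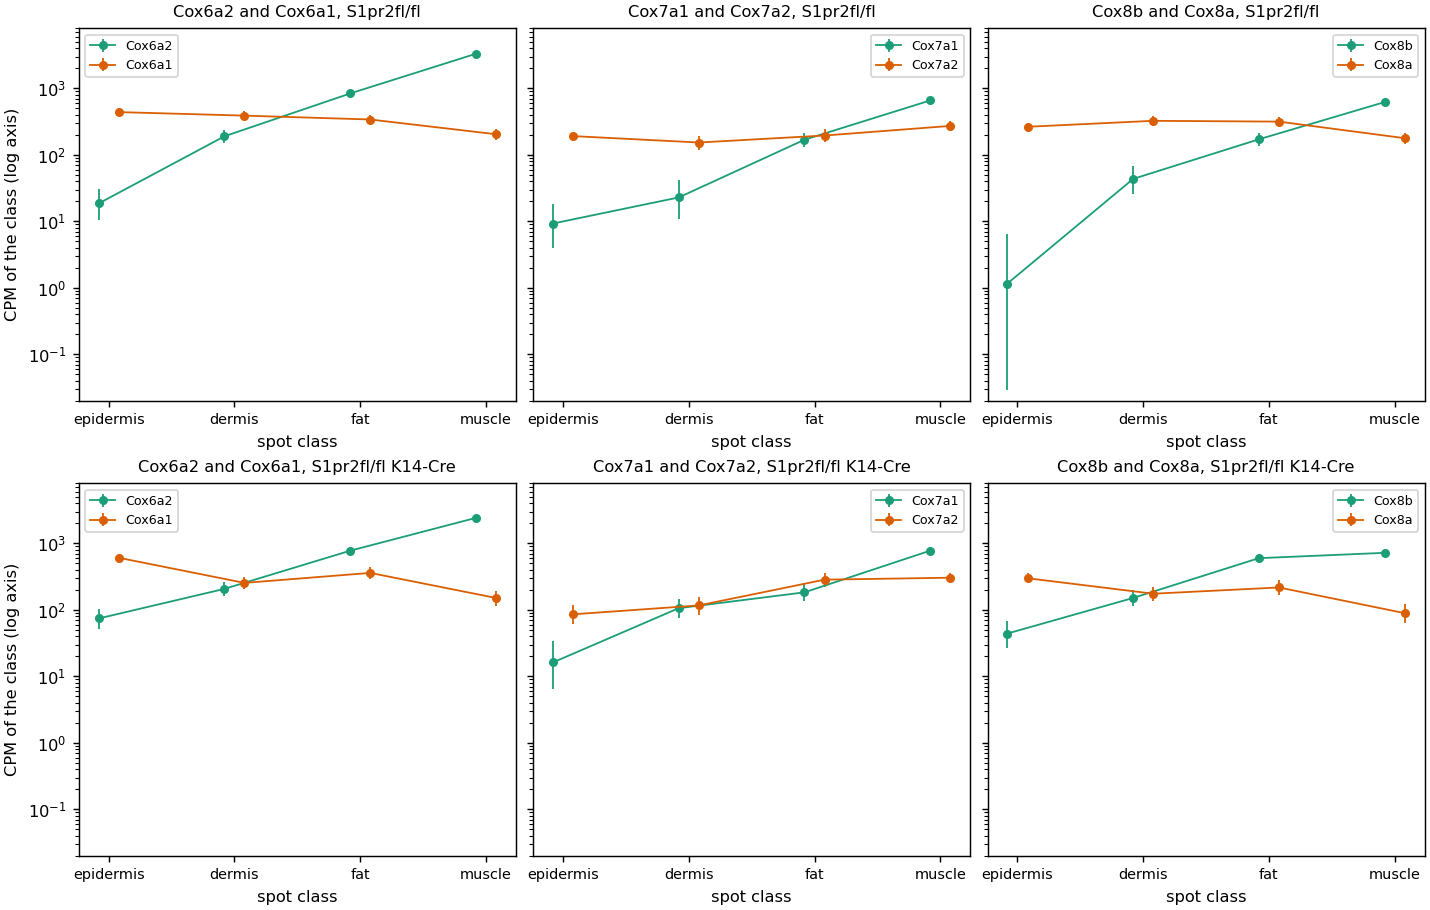
CPM (log axis) of the muscle form (green) and the general form (orange) of subunits 6A, 7A and 8 of complex IV in the 4 spot classes of each section. Points are sums over the spots of a class and bars 95% Poisson intervals. The green lines rise from epidermis to muscle in every panel, while Cox6a1 falls from 439 to 204 and from 606 to 151 CPM.

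Of the other pairs, Cox7b, the general form of subunit 7B, was 1.53-fold (1.18 to 1.99) and 1.52-fold (1.06 to 2.20) higher in muscle than in epidermis, while its testis form Cox7b2 had 17 and 15 UMIs in the whole sections. Cox6b2, the testis form of subunit 6B, had 50 UMIs in each section. Cox4i2, the form of subunit 4 known from lung, had 37 and 73 UMIs. Cox5b, which has no such pair among the genes measured, gave 1.88 (1.62 to 2.18) in the S1pr2fl/fl section and 1.08 (0.934 to 1.25) in the other.

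Ndufa4l2, a relative of the complex IV subunit Ndufa4 that is known to be induced by hypoxia, was the only gene with enough UMIs that was at least 2-fold higher in epidermis than in each of dermis, fat and muscle in both sections. It stood at 834 CPM (774 to 897) in epidermis, 203 in dermis, 221 in fat and 129 in muscle of the S1pr2fl/fl section. It stood at 888 CPM (801 to 981), 87.2, 41.1 and 39.5 CPM in the S1pr2fl/fl K14-Cre section. Muscle was thus 6.47-fold lower than epidermis in the S1pr2fl/fl section (ratio 0.155, 0.120 to 0.196) and 22.5-fold lower in the other (0.0445, 0.0252 to 0.0732). It was found in 120 of 165 and 91 of 142 epidermis spots. In the 4 segments its epidermis level ran from 474 to 1014 CPM and from 683 to 1014 CPM, and each of these lay above every muscle value, which ran up to 159 CPM. The larger epidermis signal in S1pr2fl/fl dermis and fat spots (32351 and 27480 CPM of the epidermis list, against 5276 and 4314 CPM) moved with the higher Ndufa4l2 there, and its part in that was not tested.

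Fat spots lay between epidermis and muscle. Their sum exceeded that of epidermis 1.36-fold (1.32 to 1.40) and 1.19-fold (1.15 to 1.23). Of 65 S1pr2fl/fl genes with enough UMIs, 15 were higher than in epidermis (23.1%, against 25.5% of all genes) and 1 lower (1.54%, against 16.0%), and in the S1pr2fl/fl K14-Cre section 16 of 60 were higher (26.7%, against 24.0%) and 2 lower (3.33%, against 27.7%). The shares called higher were thus near those of all genes. Cox6a2, Cox8b and Cox7a1 led the list in both sections, at 45.1, 148 and 18.2-fold in the S1pr2fl/fl section, where the Cox8b value again rests on 1 epidermis UMI, and at 10.5, 13.6 and 11.3-fold in the other. Complex II exceeded epidermis 2.19-fold (1.92 to 2.51) and 1.53-fold (1.31 to 1.80).

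The muscle forms in fat spots were set beside the muscle list. Per 1000 UMIs of the muscle list, Cox6a2 gave 49.8 UMIs (44.7 to 55.3) in S1pr2fl/fl fat spots and 47.3 (45.2 to 49.5) in muscle spots, and 20.1 (17.5 to 23.1) and 22.5 (21.1 to 24.0) in the S1pr2fl/fl K14-Cre section, so that the intervals overlapped. Cox8b did so in the S1pr2fl/fl section, with 10.2 (7.96 to 12.9) and 8.88 (7.98 to 9.86), but in the S1pr2fl/fl K14-Cre section it gave 15.6 (13.2 to 18.2) in fat spots and 6.71 (5.96 to 7.53) in muscle spots. Cox7a1 gave 10.1 and 9.41 in the S1pr2fl/fl section and 4.77 (3.53 to 6.30) and 7.24 (6.46 to 8.09) in the other, where it was lower in fat spots. Ucp1, which defines brown fat, had 2 and 3 UMIs in fat spots. A list of 5 genes used for brown fat, Ucp1, Cidea, Dio2, Elovl3 and Pparg, stood at 128 and 67.2 CPM in fat spots and 45.3 and 9.88 CPM in muscle spots. In dermis spots that list stood at 126 and 58.2 CPM and in epidermis spots at 38.2 and 53.2 CPM. It is not particular to brown fat, since Elovl3 also marks sebaceous glands and hair. The receptor background of the S1pr2fl/fl K14-Cre section was 7.03 CPM per gene in epidermis, 6.48 in dermis, 4.02 in fat and 1.57 in muscle spots. Its part in these sums was not tested. The part of fat cells in the levels of Cox6a2, Cox7a1 and Cox8b was not tested. In fat spots whose muscle list was at or under the section median, a choice made after seeing the data that kept 12 and 15 spots, the sum was 1.03-fold (0.961 to 1.10) and 0.940-fold (0.865 to 1.02) that of epidermis spots chosen the same way. Both intervals include 1, and the part of muscle transcripts in the sum of fat spots was not tested. The section medians were 0.215% and 1.19% of a spot's UMIs, and the fat spots kept still held 744 and 5766 CPM of the muscle list. Against fat, muscle spots were higher 1.52-fold (1.48 to 1.56) and 1.36-fold (1.32 to 1.40), with Cox6a2 (3.96 and 3.12-fold) and Cox7a1 (3.90 and 4.24-fold) highest in both. The lowest ratios were 0.564 for Cox8a and 0.582 for Ndufa4l2 in the S1pr2fl/fl section and 0.410 for Cox8a and 0.420 for Cox6a1 in the other.

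Dermis spots held the lowest or equal lowest sum. Against epidermis it was 0.985 (0.955 to 1.02) in the S1pr2fl/fl section, an interval that includes 1, and 0.811 (0.784 to 0.839) in the S1pr2fl/fl K14-Cre section. Of 62 genes in the S1pr2fl/fl section, 2 were higher than in epidermis (3.23%, against 24.8% of all genes) and 2 lower (3.23%, against 13.5%). Of 58 genes in the S1pr2fl/fl K14-Cre section, 4 were higher (6.90%, against 24.2%) and 6 lower (10.3%, against 20.7%). Cox6a2 and Ndufa13, a complex I subunit, were higher in dermis in both sections and Ndufa4l2 lower in both. The other lower gene of the S1pr2fl/fl section was Atp5f1 (0.475), and those of the S1pr2fl/fl K14-Cre section were Sdhd (0.343), Atp5o (0.349), Ndufv3 (0.413), Cox6a1 (0.419) and Ndufb6 (0.465). In dermis spots with few muscle transcripts, 60 and 58 spots chosen after seeing the data, the ratio was 0.948 (0.914 to 0.982) and 0.690 (0.660 to 0.722). These spots still held 788 and 5929 CPM of the muscle list, so those of the S1pr2fl/fl K14-Cre section were not free of muscle transcripts. Muscle exceeded dermis 2.09-fold (2.03 to 2.15) and 2.00-fold (1.94 to 2.06). Cox7a1, at 28.8-fold (15.5 to 60.5), and Cox6a2, at 17.4-fold (13.99 to 22.0), led in the S1pr2fl/fl section. Cox6a2, at 11.7-fold (9.28 to 14.9), and Cox7a1, at 7.33-fold (5.27 to 10.5), led in the S1pr2fl/fl K14-Cre section, whose dermis spots held more muscle transcripts (above), among them 3185 CPM of developmental muscle genes against 63.9 CPM in the other section. The lowest ratios were 0.525 for Cox6a1 and 0.548 for Cox8a in the S1pr2fl/fl section and 0.510 for Cox8a and 0.594 for Cox6a1 in the other.

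Oxidative and fast muscle spots were then compared. Muscle spots were ranked by the share of 7 slow and oxidative fibre genes, such as Myh2, Tnnt1 and Casq2, in the UMIs of these and 10 fast fibre genes, and cut into 3 groups of equal size, of which the upper (oxidative spots) was set against the lower (fast spots), 51 against 51 and 44 against 44 spots. Fast fibre genes gave most of these UMIs everywhere: the oxidative share had a median of 1.12% and 0.623% and reached at most 7.87% and 7.14%. The level of this share depends on the probes of each gene, which are not known here. Myh2, the myosin of fast oxidative fibres, had 1974 CPM in the oxidative spots and 47.3 CPM in the fast spots of the S1pr2fl/fl section and 2168 and 81.0 CPM in the other, whereas Myh7, the myosin of slow fibres, had 1 and 13 UMIs in all muscle spots. The fast fibre list stood at 70185 CPM in the oxidative and 68914 CPM in the fast spots of the S1pr2fl/fl section. In the other section it stood at 124561 and 130652 CPM. The fast spots of the S1pr2fl/fl section were thus not richer in fast fibre transcripts. The comparison is therefore between spots with more and fewer transcripts of fast oxidative fibres, all with most fibre UMIs from fast fibre genes.

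The sum of the 80 genes hardly differed between these groups. It was 29940 CPM (29250 to 30641) in the oxidative and 29675 (28525 to 30859) in the fast spots of the S1pr2fl/fl section, a ratio of 1.01 (0.964 to 1.06). In the S1pr2fl/fl K14-Cre section it was 31796 CPM (30823 to 32793) and 29194 (28139 to 30280), a ratio of 1.09 (1.04 to 1.14). The latter fell to 0.975 per UMI of the muscle list and to 0.996 when the upper was set against the lower 50% of the muscle spots, so its direction was not stable. Both groups of the S1pr2fl/fl section also differed in depth, with a median of 4691 UMIs per oxidative spot and 1197 per fast spot, and in place, with 36 of the 51 fast spots in 1 of the 4 segments. Among muscle spots with at least 2000 UMIs, chosen after seeing the data, the ratio was 1.00 (0.959 to 1.04), and 1.06 (1.01 to 1.12) in the S1pr2fl/fl K14-Cre section.

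Few genes passed 2-fold between the groups. Of 56 genes in the S1pr2fl/fl section, 1 was higher in the oxidative spots (1.79%, against 4.40% of all 1046 genes with enough UMIs) and 1 lower (1.79%, against 1.53%). These were Ndufa9 of complex I, at 2.38-fold (1.07 to 6.23) on 47 and 7 UMIs, and the general form Cox6a1, at 0.495 (0.288 to 0.863). Of 45 genes in the S1pr2fl/fl K14-Cre section, 1 was higher (2.22%, against 4.94% of 567 genes) and 0 lower (against 2.47%), Ndufs8 of complex I, at 2.34-fold (1.22 to 4.77). No gene was called in both sections. The next highest ratios were 1.63 for Uqcrh and 1.52 for Atp5l in the S1pr2fl/fl section and 1.88 for Ndufb5 and 1.68 for Ndufb9 in the other, and the next lowest 0.546 for Ndufa1 and 0.600 for Ndufa6, and 0.692 for Atp5j, 0.695 for Atp5mpl and 0.698 for Ndufa8. The muscle forms did not follow the fibre ranking: Cox6a2 had 3087 CPM (2868 to 3318) in the oxidative and 2837 (2490 to 3220) in the fast spots of the S1pr2fl/fl section, and 2680 (2403 to 2980) and 2520 (2216 to 2853) in the other. By complex, the sole interval that left out 1 was that of complex I in the S1pr2fl/fl K14-Cre section, 1.20 (1.10 to 1.30), against 1.02 (0.941 to 1.11) in the S1pr2fl/fl section.

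**Figure D5:**
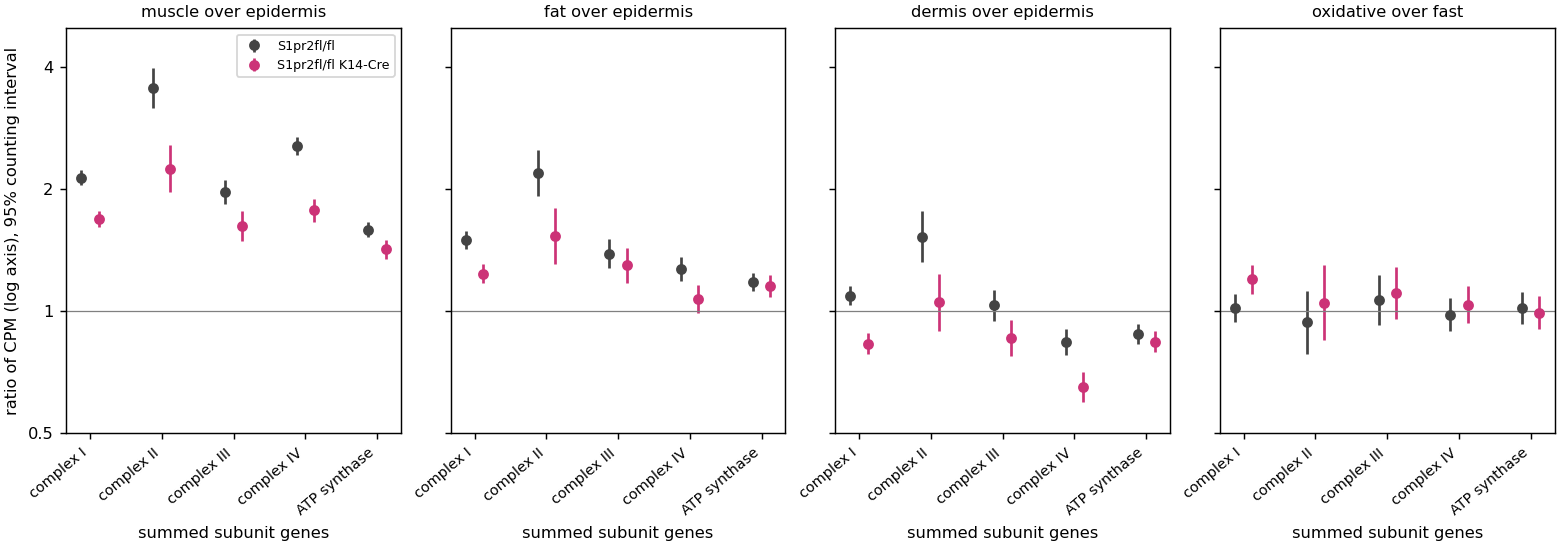
Ratio of summed CPM (log axis) for the subunit genes of each complex in 4 comparisons, with 95% counting intervals, for the S1pr2fl/fl section (grey) and the S1pr2fl/fl K14-Cre section (pink). Complex II stands highest in muscle over epidermis, at 3.56 and 2.25, while the oxidative over fast ratios lie near 1.

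Other genes of mitochondrial metabolism were set beside the 80, against 25.6% and 24.8% of all genes with enough UMIs that were at least 2-fold higher in muscle than in epidermis and 22.5% and 36.7% that were at least 2-fold lower. Of the citric acid cycle and pyruvate dehydrogenase genes, 12 of 16 with enough UMIs were higher in muscle than in epidermis in the S1pr2fl/fl section and 10 of 14 in the other, none lower, and their sum differed 2.55-fold (2.39 to 2.72) and 2.39-fold (2.20 to 2.61). Of the fatty acid oxidation genes, 7 of 16 and 5 of 13 were higher and 0 and 1 lower. Of the other assembly factors, 10 of 14 and 3 of 6 were higher and 1 lower in each. Of the uncoupling and mitochondrial stress genes, 1 and 0 of 7 were higher and 1 and 4 lower. Of the cytochrome c and carrier genes, 4 of 7 and 3 of 6 were higher and 1 lower in each, and of the mitochondrial regulators only 2 had enough UMIs, with none higher and 0 and 2 lower. Of the ADP/ATP carriers of the inner membrane, Slc25a4, the muscle form, had 104 CPM in epidermis and 5248 in muscle of the S1pr2fl/fl section and 162 and 5295 CPM in the other, while Slc25a5 was lower in muscle, at 0.440 (0.355 to 0.541) and 0.258 (0.181 to 0.361). Ppargc1a, a coactivator of mitochondrial genes, had 25 UMIs in S1pr2fl/fl muscle and 4 in epidermis, a ratio of 9.41 (3.25 to 37.2). In the S1pr2fl/fl K14-Cre section Ppargc1a had 20 and 0 UMIs, a ratio whose counting interval starts at 5.27. Esrra, an orphan nuclear receptor that acts with it, gave 1.24 (0.874 to 1.77) and 0.438 (0.263 to 0.708).

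Between the sections, the sum of the 80 genes in CPM was close in muscle and higher in S1pr2fl/fl K14-Cre epidermis. S1pr2fl/fl K14-Cre over S1pr2fl/fl was 1.03 (1.01 to 1.05) in muscle and 1.31 (1.27 to 1.35) in epidermis, and 1.08 and 1.15 in dermis and fat. The muscle spots were not alike in muscle content, since the muscle list stood at 107083 CPM in the S1pr2fl/fl K14-Cre section against 69808 CPM. The sums were thus close per UMI of all genes and not per UMI of the muscle list. In epidermis, 11 of 62 genes were higher in the S1pr2fl/fl K14-Cre section (17.7%, against 16.7% of all 4137 genes) and 2 lower (3.23%, against 15.5%). The share called higher was thus near that of all genes. The assembly factor Ndufaf8 (3.37-fold) and Ndufb6 (3.33-fold) and Ndufv3 (3.19-fold) of complex I were highest, and Cox7a2 (0.448) and Ndufa9 (0.472) were lower. In muscle, 1 of 66 was higher (1.52%, against 3.23% of 3471 genes), Ndufab1 at 2.87-fold, and 2 lower (3.03%, against 14.2%), Ndufa4l2 at 0.307 and Atp5f1 at 0.499. The median of all genes was 1.04 in epidermis and 0.876 in muscle, and relative to it the sum was 1.26 and 1.18. The background of smell and taste receptors was 8.04-fold (7.48 to 8.65) higher in S1pr2fl/fl K14-Cre epidermis spots but 0.993 (0.905 to 1.09) in muscle. With its mean taken off each gene, and so off the totals that the sums are divided by, the epidermis ratio was 1.45. The part of this background, and that of the lower share of epidermis markers in those spots (above), was not tested.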

How the data were processed

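Of 2 sections of fixed tissue assayed with Visium CytAssist, the authors deposited matrices of UMI counts, not normalized, by gene and spot over tissue. Per the file headers Space Ranger 3.0.0 made the tables, and the submitters' processing notes name mm10. The probe set is not given in the sources used here.

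From these counts, UMIs were summed over the spots of each marker class and divided by all UMIs of the class, as CPM. Probe counts do not scale with gene length, and the probes of each gene are not known here. The isoform shares, the fibre share and the choice of genes with most UMIs set counts of different genes side by side. They depend on these probes. The members, marker lists, spot classes and comparisons were chosen with earlier results of these data known. No p-value was computed, since each genotype had 1 section, and depth was 5315351 and 2845826 UMIs, so that intervals reflect counts only. Spots with under 500 UMIs were left out, 186 and 34. The median spot had 3542.5 and 2319 UMIs.

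The text names the isoform pairs, the c subunit genes, complex II, the 10 members with most UMIs, and the members with the highest and lowest ratios of each comparison (5 for muscle over epidermis, 3 for oxidative over fast, 2 for muscle over fat or dermis). Other members are named where a count or a difference between sections required it, after their values were seen. One member that the rule names is not reported here. Promoter windows came from RefSeq for GRCm38.p6, the assembly behind mm10. The ratio intervals were tested on data simulated with counting error alone, which leaves out the spread between spots and between mice. Alternatives changed the share of spots, the minimum of UMIs, the grouping rule, the denominator, the background and the fibre ranking. Python 3.11.15, numpy 2.4.6, scipy 1.17.1 and pandas 2.3.3 were used.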

Additional observations from a re-analysis of the deposited data

Results flagged for a closer look

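For 5 ratios the sections lay on opposite sides of 1 with both counting intervals leaving out 1. Enough UMIs in both sections were found for 62 genes in muscle over epidermis, 60 in fat over epidermis and 57 in dermis over epidermis. The share of all genes with such opposite ratios is not given here, so the number 5 is not read as a result about these genes. The difference between the sections was not tested, since each genotype had 1 section. Ndufv3, of complex I, was 1.49-fold (1.21 to 1.83) higher in muscle than in epidermis of the S1pr2fl/fl section and 0.564 (0.462 to 0.687) in the S1pr2fl/fl K14-Cre section, a log2 difference of -1.40. Ndufb6, also of complex I, gave 1.36 (1.13 to 1.63) and 0.686 (0.588 to 0.800), a log2 difference of -0.986. Both had higher epidermis levels in the S1pr2fl/fl K14-Cre section, 691 against 216 CPM for Ndufv3 and 989.5 against 297 CPM for Ndufb6.

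Ndufs1, the largest complex I subunit, gave 1.57 (1.12 to 2.17) and 0.670 (0.449 to 0.983) for fat over epidermis, a log2 difference of -1.22. For dermis over epidermis it gave 1.42 (1.01 to 1.98) and 0.560 (0.384 to 0.804), a log2 difference of -1.34. Cox5b, of complex IV, gave 1.23 (1.03 to 1.47) and 0.720 (0.597 to 0.866) for fat over epidermis, a log2 difference of -0.773. All 5 ratios share the epidermis spots of their section.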

How the results depend on the processing

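The sum of the 80 genes stayed higher in muscle than in epidermis under each alternative run, at 1.91 to 2.24 in the S1pr2fl/fl section and 1.48 to 1.98 in the S1pr2fl/fl K14-Cre section. Values outside the counting interval are given with the S1pr2fl/fl section first where both moved. With the top 10% of spots, muscle over epidermis was 2.24, fat over epidermis 1.43, dermis over epidermis 1.035 and the muscle isoform share 88.7% in the S1pr2fl/fl section. With the top 20%, S1pr2fl/fl muscle gave 1.91, fat 1.27 and 1.27, and S1pr2fl/fl K14-Cre dermis 0.882. With spots given to the list of highest relative share, S1pr2fl/fl muscle gave 1.98, fat 1.26, dermis 0.942 and the isoform share 86.2%, and oxidative over fast in the S1pr2fl/fl K14-Cre section turned to 0.979. It also turned to 0.996 for the upper against the lower 50% and to 0.975 per UMI of the muscle list. With the receptor background taken off, S1pr2fl/fl dermis gave 1.02, S1pr2fl/fl K14-Cre muscle 1.48 and fat 1.13, and epidermis between sections 1.45. With marker and fibre lists left out of the denominator, muscle gave 2.11 and 1.98, fat 1.27 and 1.25, and S1pr2fl/fl dermis 0.903. As a mean over spots, muscle gave 2.22 and 1.69, and S1pr2fl/fl fat 1.41, dermis 1.055 and the isoform share 85.5%. In spots with few muscle transcripts, chosen after seeing the data, fat gave 1.03 and turned to 0.940, and dermis gave 0.948 and 0.690. At 1.5-fold, 48 in place of 30 genes were higher in S1pr2fl/fl muscle, beside 33.9% of all genes with enough UMIs, and 39 in place of 26 in the S1pr2fl/fl K14-Cre section, beside 31.8%. With the median of all genes set to 1, the ratio between sections was 1.18 in muscle and 1.26 in epidermis. The S1pr2fl/fl ratio of oxidative to fast spots, 1.01 as reported, fell below 1 with the top 10% of spots (0.982), as a mean over spots (0.993) and for the upper against the lower 50% (0.9965). In the fibre comparison, 56 and 45 of the 80 genes had at least 50 UMIs. The cause of these moves was not tested. No paired analysis was possible because each genotype had 1 section.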

Other observations

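Across groups of spots ranked by muscle content, the sum of the 80 genes rose mainly in the groups with the most muscle signal. All spots with at least 500 UMIs of a section were ranked by the muscle list and cut into 10 groups with about equal numbers of spots. The 7 groups with the least muscle signal in the S1pr2fl/fl section held between 15527 and 16854 CPM of the 80 genes. The muscle list ran from 51.7 to only 9692 CPM over them, so the groups were not evenly spaced in muscle content. The top 3 groups held 20659, 27199 and 30312 CPM, at 23445, 50484 and 77433 CPM of the muscle list. In the S1pr2fl/fl K14-Cre section the 6 lowest groups held between 15994 and 17907 CPM and the top 2 groups 30304 and 30654 CPM. In both sections the step between the top 2 groups was small beside that of the muscle list, from 50484 to 77433 and from 90055 to 113335 CPM. This ranking was made after seeing the data.

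Genes of the hypoxia response were looked at after Ndufa4l2 had been seen to be high in the epidermis. They were picked by name and not from a list of the response. Of all genes with enough UMIs, 22.5% in the S1pr2fl/fl section and 36.7% in the other were at least 2-fold lower in muscle than in epidermis. Egln3, a prolyl hydroxylase, stood at 974 CPM in epidermis and 301 in muscle of the S1pr2fl/fl section and at 652 and 146 CPM in the other, a muscle over epidermis ratio of 0.309 (0.261 to 0.365) and 0.223 (0.166 to 0.297). Hif1a, a subunit of the hypoxia-inducible factor, gave 0.318 (0.243 to 0.412) and 0.159 (0.100 to 0.243). Vegfa, a growth factor of vessels, gave 0.753 (0.534 to 1.05) and 0.525 (0.324 to 0.832), a difference under 2-fold in both sections. Whether these genes and Ndufa4l2 move together within the epidermis was not tested.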
